A study of Mus musculus with 8 samples.

Results

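The nuclear genes for the structural subunits of respiratory complexes I to V were followed as 1 module in inguinal white adipose tissue (iWAT) of cold-exposed mice. Members were the genes named Ndufa, Ndufb, Ndufc, Ndufs, Ndufv, Sdha to Sdhd, Uqcr, Cox4 to Cox8 and Atp5 in the deposited tables, without assembly factors and without the muscle and brown fat isoforms Cox6a2, Cox7a1 and Cox8b. The rule used names only and took 81 of 17264 genes, of which 37 belong to complex I, 4 to complex II, 8 to complex III, 15 to complex IV and 17 to complex V. RNA-seq measured polyadenylated transcripts and Ribo-seq measured fragments protected by ribosomes, each in 2 libraries of Y1cKO and 2 libraries of Y1CTL iWAT. Y1cKO mice carry floxed Ythdf1 alleles (exon 4) and Adipoq-Cre, which acts in adipocytes, and Y1CTL mice are floxed littermates with no Cre. All were male C57BL/6 mice, 9-week old and kept singly at 4 °C for 7 days. YTHDF1 is a cytoplasmic reader of N6-methyladenosine in mRNA. Whole iWAT also holds vascular, immune and stromal cells, in which this Cre leaves the floxed alleles as they are.

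The respiratory chain lies in the inner mitochondrial membrane. Complexes I and II pass electrons from NADH and succinate to ubiquinone, complex III passes them to cytochrome c, and complex IV reduces oxygen with them. Complexes I, III and IV pump protons, and complex V, the ATP synthase, lets them flow back to make ATP. In brown and beige adipocytes UCP1 offers the protons another way back, so that electron transport yields heat. Most subunits are encoded in the nucleus and are made by cytosolic ribosomes, while mitochondrial ribosomes make a small core set that complex II lacks.

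Ribo-seq libraries held 9511334 and 9035419 reads in Y1cKO and 11862838 and 7364523 in Y1CTL iWAT, and RNA-seq libraries held 12211351 and 16429015 reads in Y1cKO and 3958284 and 4963613 in Y1CTL iWAT. The labels leave unsaid if the replicates were different animals, and the p-values therefore reflect no more than how these libraries spread. Ythdf1 itself had 12.7 and 15.7 RPKM in Y1cKO and 17.3 and 16.0 RPKM in Y1CTL Ribo-seq libraries, and its difference passed the test in neither assay (adjusted p = 1.00 for Ribo-seq and 0.587 for RNA-seq, limma). RPKM covers the whole coding sequence (Ribo-seq) or the whole transcript (RNA-seq), so that reads of the floxed exon alone were not seen. All 6 adipocyte markers were detected in every library, with medians of 2149 and 1850 RPKM in Y1cKO and 2039 and 2960 RPKM in Y1CTL Ribo-seq libraries, and of 648 and 704 RPKM in Y1cKO and 552 and 312 RPKM in Y1CTL RNA-seq libraries. Several libraries stood apart. Among the RNA-seq libraries, Y1cKO replicate 1 was high in muscle transcripts, with a median of 22.1 RPKM over 10 skeletal muscle markers, none at 0 (0.03 RPKM or less in the others, with 4 to 8 markers at 0). Y1CTL replicate 2 was high in lymphocyte transcripts, with a median of 15.7 RPKM over 10 markers of lymph node, T and B cells (0.26 RPKM or less in the others), while these medians were 70.5 and 76.2 RPKM in Y1cKO and 74.7 and 56.1 RPKM in Y1CTL Ribo-seq libraries. The 10 beige and brown adipocyte markers include Cox7a1 and Cox8b, the complex IV isoforms left out of the module. These 10 markers had medians of 801.2 and 780.7 RPKM in Y1cKO and 1185 and 270.0 RPKM in Y1CTL Ribo-seq libraries. In RNA-seq libraries those medians were 12.0 and 74.5 RPKM in Y1cKO and 80.4 and 173.0 RPKM in Y1CTL iWAT. Ucp1 gave the same order, with 3164 and 2481 RPKM in Y1cKO and 3585 and 955 RPKM in Y1CTL Ribo-seq libraries. The part of these differences in the results was not tested, and in bulk tissue fewer cells of a type and less RNA per cell cannot be told apart.

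Subunit genes are known targets of NRF1, of the ETS factor GABP and of the estrogen-related receptors, and short-leader genes often hold a YY1-type element at the start. RefSeq promoters of the GRCm38.p6 build (250 bases before to 50 after the start) were matched by symbol for 66 of the 81 genes. The NRF1 motif, the 10 letters in capitals in the sites printed here with any base at the 6th place, was searched on both strands. It was in 17 of the 66 promoters (25.8%) and in 7.17% of all 17492 protein-coding promoters in the table. The genes holding it were 7 of complex I, 2 of complex II, 1 of complex III, 1 of complex IV and 6 of complex V. Of its 23 matches in these genes, 19 lay within 100 bases of the start, and Sdha and Ndufb4 held 3 each. One site from each complex is printed on the gene's strand, with the motif in capitals, because members of all 5 complexes held this motif.
Ndufa5, chr6:24527697-24527726 (minus strand): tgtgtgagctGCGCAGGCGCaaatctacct
Sdha, chr13:74350231-74350260 (minus strand): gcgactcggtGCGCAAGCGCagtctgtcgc
Uqcrc1, chr9:108936668-108936697 (plus strand): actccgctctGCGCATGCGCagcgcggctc
Cox6a1, chr5:115349056-115349085 (minus strand): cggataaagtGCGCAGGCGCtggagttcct
Atp5k, chr5:108434430-108434459 (minus strand): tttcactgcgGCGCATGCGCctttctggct
The core of Sdha began at position -10 and that of Ndufa5 at position -26, counted from the start, while that of Uqcrc1 began at position 31 inside the transcript. A match is a description of the letters and not a measured site.

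The other motifs were rarer or less specific. The ETS motif CCGGAAG was in 17 of 66 promoters (25.8%) and in 12.9% of all promoters, among them that of Cox6b1, whose site is printed because Cox6b1 had the highest Ribo-seq level of complex IV. The YY1 motif, the 10 letters in capitals in its sites, was in 5 promoters (7.58%) and in 1.41% of all, in each case on the gene's strand, and 4 of these genes encode complex I subunits. The ERR motif TCAAGGTCA was in 2 promoters (3.03%) and in 0.377% of all, those of Atp5g3 and Sdhd. These are the genes with the smallest unadjusted p for a higher and for a lower RNA-seq value in Y1cKO iWAT among the members, so their sites are shown, together with the NRF1 site that each also held. Both ERR matches, the NRF1 match of Atp5g3 and the ETS match of Cox6b1 lay on the strand opposite to the gene, so the capitals show the reverse complement of the motif. No match of one motif overlapped a match of another.
Cox6b1 ETS, chr7:30626124-30626153 (minus strand): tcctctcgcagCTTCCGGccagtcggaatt
Ndufs6 YY1, chr13:73328433-73328462 (minus strand): aagggtcaccggcAAGATGGCGGcggtgct
Ndufs4 YY1, chr13:114388045-114388074 (minus strand): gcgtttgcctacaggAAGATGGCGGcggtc
Ndufs7 YY1, chr10:80249463-80249492 (plus strand): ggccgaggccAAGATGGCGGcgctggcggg
Ndufa9 YY1, chr6:126849096-126849125 (minus strand): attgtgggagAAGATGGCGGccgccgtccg
Atp5j YY1, chr16:84835045-84835074 (minus strand): aagtgtaggaAAGATGGCGGagtcttagct
Atp5g3 ERR, chr2:73911359-73911388 (minus strand): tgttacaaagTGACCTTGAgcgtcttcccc
Atp5g3 NRF1, chr2:73911295-73911324 (minus strand): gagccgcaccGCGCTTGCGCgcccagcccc
Sdhd ERR, chr9:50603800-50603829 (minus strand): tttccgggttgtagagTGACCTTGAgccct
Sdhd NRF1, chr9:50603909-50603938 (minus strand): tcgctggggtGCGCACGCGCggtggcagcg
In the 4 complex I genes the YY1 motif lay just after the start, at positions 25 to 36, and in Atp5j it lay before it, at position -88. Member transcripts were short, with median leader, coding and trailer lengths of 104, 411 and 158 nt, against 167, 1338 and 904 nt over all 17264 genes. A leader under 50 nt was annotated for 14 members, the shortest being that of Ndufs6 at 9 nt. The lower quartile of leader length was 62 nt for members and 83 nt for all genes. Among the other genes with a YY1 motif, leaders were 13 nt for Ndufa9, 202 nt for Ndufs4, 248 nt for Ndufs7 and 395 nt for Atp5j. Leaders follow the deposited annotation and motif positions follow RefSeq, so their starts need not be the same.

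The subunit genes were among the most abundant of the tissue in both assays. In Ribo-seq, where RPKM is per coding length, 75 of 81 members were in the top 5% of the 12602 genes tested, above 243 RPKM. In RNA-seq, where RPKM is per transcript length, 64 of 80 members were in the top 5% of the 12435 genes tested, above 62.9 RPKM. Members took 5.17% and 4.59% of all Ribo-seq reads in Y1cKO and 4.93% and 3.73% in Y1CTL libraries. In RNA-seq they took 1.08% and 1.45% of reads in Y1cKO and 1.34% and 1.61% in Y1CTL libraries. The order of the members was much the same in all libraries of an assay, with Spearman's rho of 0.953 to 0.992 between Ribo-seq libraries and 0.915 to 0.969 between RNA-seq libraries, and less alike between assays (0.553 to 0.655, 81 genes that share libraries and depth).

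**Figure D1:**
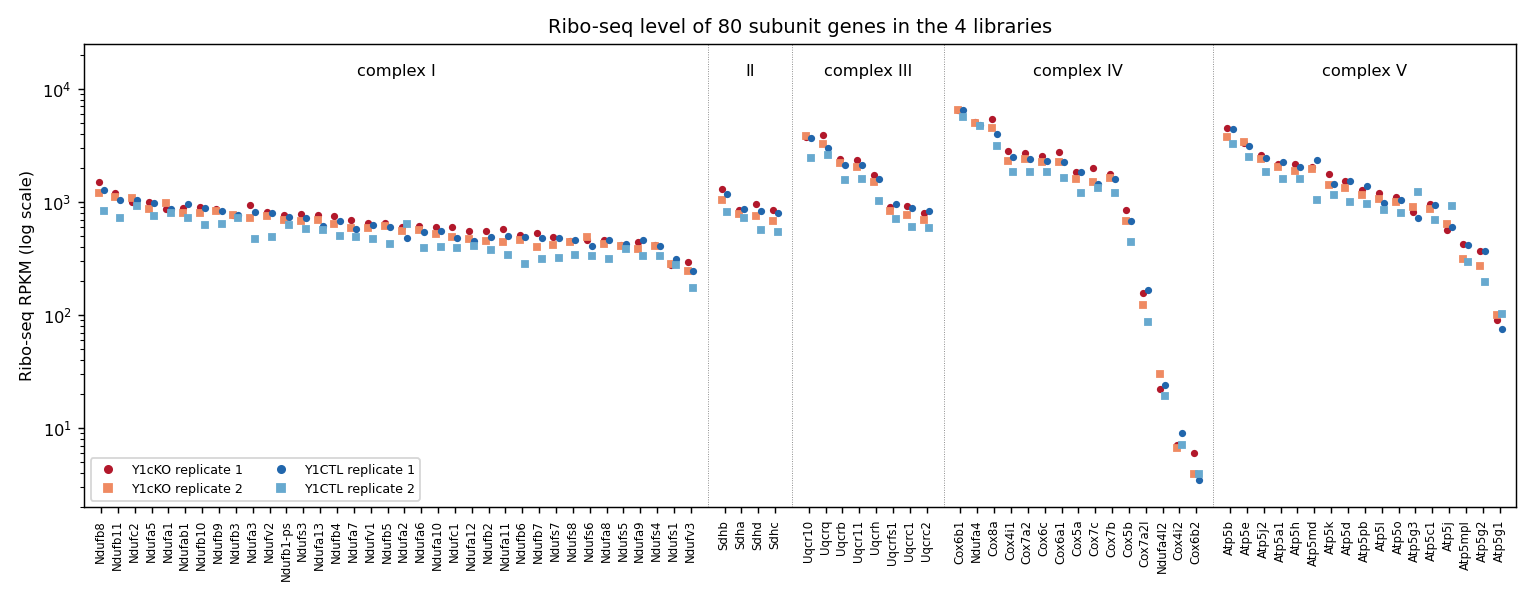
Ribo-seq level (RPKM per coding length, log axis) of 80 subunit genes in the 4 Ribo-seq libraries, grouped by complex. Complex I genes lie within about 1 order of magnitude, while complexes IV and V reach down to Cox6b2 near 4 RPKM and Atp5g1 near 92 RPKM.

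Complexes differed in level. The median complex III subunit had 2033 and 1770 RPKM in Y1cKO and 1850 and 1292 RPKM in Y1CTL Ribo-seq libraries, and complex IV was close to it at 1990 and 1637 RPKM in Y1cKO and 1830 and 1342 RPKM in Y1CTL libraries. Complex I had the lowest median in each Ribo-seq library, at 647 and 565 RPKM in Y1cKO and 573 and 459 RPKM in Y1CTL iWAT. Complex IV nevertheless gave the largest part of the summed member RPKM in Ribo-seq (30.8% to 32.3% over the 4 libraries), followed by complex V (25.0% to 26.4%) and complex I (23.6% to 23.8%), and these shares barely moved between libraries.

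In complex I the levels spanned 5.04-fold in Ribo-seq. Ndufb8, an accessory subunit of the membrane arm, was the highest, with 1515 and 1194 RPKM in Y1cKO and 1286 and 828 RPKM in Y1CTL Ribo-seq libraries. Ndufv3, an accessory subunit of the NADH-oxidising tip whose RPKM is spread over an annotated coding length of 1404 nt, was the lowest, with 293.7 and 243.7 RPKM in Y1cKO and 245.6 and 173.5 RPKM in Y1CTL libraries. Both genes had overlapping genotype ranges, with Y1CTL replicate 2 lowest. Ndufs1, the iron-sulfur subunit that carries electrons away from the flavin, was the next lowest, at 276.5 and 285.5 RPKM in Y1cKO and 316.1 and 276.5 RPKM in Y1CTL libraries. Ndufv1, which binds NADH and the flavin, had 651 and 585 RPKM in Y1cKO and 624 and 467 RPKM in Y1CTL libraries. The catalytic tip thus held genes from low and middle positions of the complex I range.

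Complex II had the narrowest range, 1.52-fold in Ribo-seq. Sdhb, its iron-sulfur subunit, was the highest, with 1308 and 1049 RPKM in Y1cKO and 1180 and 819 RPKM in Y1CTL Ribo-seq libraries. Sdhc, a membrane anchor, was the lowest, with 854 and 682 RPKM in Y1cKO and 799 and 540 RPKM in Y1CTL libraries. Sdha, the flavoprotein that oxidises succinate, had 845 and 777 RPKM in Y1cKO and 869 and 728 RPKM in Y1CTL libraries. The 4 subunits, of which each complex holds 1 copy, thus lay close together in footprints per coding length.

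In complex III the range was 4.70-fold. The small subunit Uqcr10 was the highest, with 3749 and 3819 RPKM in Y1cKO and 3659 and 2455 RPKM in Y1CTL Ribo-seq libraries. For Uqcr10 both Y1cKO libraries lay above both Y1CTL libraries, as for 15.4% of all genes in Ribo-seq. Uqcrc2, a core protein of the matrix side, was the lowest, with 798 and 691 RPKM in Y1cKO and 836 and 584 RPKM in Y1CTL libraries. Its partner Uqcrc1 had 923 and 768 RPKM in Y1cKO and 888 and 603 RPKM in Y1CTL libraries. The Rieske iron-sulfur protein Uqcrfs1 was near them, at 907 and 836 RPKM in Y1cKO and 963 and 711 RPKM in Y1CTL libraries.

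Complexes IV and V, which both have genes for alternative isoforms, held the extremes. Cox6b1, which faces the intermembrane space, was the highest of all members, with 6452 and 6514 RPKM in Y1cKO and 6498 and 5611 RPKM in Y1CTL Ribo-seq libraries. Its testis paralog Cox6b2 was the lowest, with 6.07 and 3.90 RPKM in Y1cKO and 3.51 and 3.92 RPKM in Y1CTL libraries, and was the only member under the 0.5 RPKM limit in RNA-seq. In RNA-seq libraries Cox6b2 had 0.84 and 0 RPKM in Y1cKO and 0 and 0.52 RPKM in Y1CTL iWAT. In complex V, Atp5b, the catalytic beta subunit, was the highest, with 4472 and 3745 RPKM in Y1cKO and 4422 and 3273 RPKM in Y1CTL Ribo-seq libraries. Atp5a1, the alpha subunit that alternates with beta in the catalytic ring at equal number, had 2167 and 2057 RPKM in Y1cKO and 2268 and 1608 RPKM in Y1CTL libraries. The ratio of Atp5b to Atp5a1 was 1.82 to 2.06 in all 8 libraries of both assays, each on its own length scale.

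For most isoform pairs among the members 1 gene dominated, with the isoforms Cox7a1 and Cox8b outside the rule. Cox4i1, the common form of subunit 4, had 2814 and 2315 RPKM in Y1cKO and 2501 and 1861 RPKM in Y1CTL Ribo-seq libraries. Cox4i2, a form known from lung and from hypoxia, had 7.13 and 6.65 RPKM in Y1cKO and 8.99 and 7.11 RPKM in Y1CTL libraries. Cox4i1 thus took 98.7% to 99.7% of the summed RPKM of the pair over all 8 libraries. Ndufa4, once assigned to complex I and now to complex IV, had 5126 and 5037 RPKM in Y1cKO and 4803 and 4686 RPKM in Y1CTL Ribo-seq libraries. Its hypoxia-induced paralog Ndufa4l2 had 22.2 and 30.1 RPKM in Y1cKO and 24.2 and 19.2 RPKM in Y1CTL libraries. Ndufa4 took 94.9% to 99.6% of that pair. Cox7a2 had 2693 and 2388 RPKM in Y1cKO and 2403 and 1838 RPKM in Y1CTL Ribo-seq libraries. Cox7a2l, a gene linked to supercomplexes of complexes III and IV, which were not measured here, had 156 and 124 RPKM in Y1cKO and 168 and 86.5 RPKM in Y1CTL libraries. The share of Cox7a2 in this pair was 93.5% to 95.5% in Ribo-seq and 69.5% to 73.3% in RNA-seq. It does not count Cox7a1, which the rule left out. Cox7a1 had 1992 and 1413 RPKM in Y1cKO and 1561 and 652 RPKM in Y1CTL Ribo-seq libraries. In RNA-seq libraries Cox7a1 had 20.9 and 117.6 RPKM in Y1cKO and 99.0 and 280.4 RPKM in Y1CTL iWAT.

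The c-ring of ATP synthase was the exception. Atp5g1, Atp5g2 and Atp5g3 encode the same mature c subunit behind different import sequences, and how reads shared between them were assigned is not given in the sources used here. Atp5g3 had 815 and 908 RPKM in Y1cKO and 720 and 1223 RPKM in Y1CTL Ribo-seq libraries. Atp5g2 had 366 and 272 RPKM in Y1cKO and 366 and 195 RPKM in Y1CTL libraries, and Atp5g1 had 91.0 and 99.8 RPKM in Y1cKO and 75.2 and 101.5 RPKM in Y1CTL libraries. Atp5g3 was thus the main gene for the c subunit in footprints. In RNA-seq its share of the 3 genes was 69.8% and 68.2% in Y1cKO and 55.0% and 46.8% in Y1CTL libraries, while in Ribo-seq it was 64.1% and 71.0% in Y1cKO and 62.0% and 80.5% in Y1CTL libraries. The share of Atp5g2 in RNA-seq was 28.6% and 30.3% in Y1cKO and 42.4% and 50.2% in Y1CTL libraries. Atp5g1 held 1.47% to 3.03% of the RNA-seq sum, so that the RNA-seq shares of Atp5g2 and Atp5g3 mirror each other. These RNA-seq shares did not overlap between genotypes, whereas the Ribo-seq shares did. In RNA-seq RPKM Atp5g2 itself overlapped. Atp5g3 had both Y1cKO values over both Y1CTL values, as did 36.9% of all genes.

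Transcript levels, per transcript length, ordered the genes in another way. In complex I they spanned 64.9-fold, with Ndufb9 highest and Ndufb2 lowest, but this span rests on the transcript length of Ndufb2. Put per coding length, as in Ribo-seq, the same 2 genes were the extremes at 372 and 60.7 RPKM, a span of 6.13-fold against 5.04-fold in Ribo-seq. Ndufv1 had 92.0 and 143 RPKM in Y1cKO and 93.8 and 128 RPKM in Y1CTL RNA-seq libraries, and Ndufs1 had 70.6 and 102 RPKM in Y1cKO and 113 and 123 RPKM in Y1CTL libraries. The overlap of the genotypes thus held for Ndufv1 and not for Ndufs1. In complex II, Sdha had 209.8 and 285 RPKM in Y1cKO and 238 and 290 RPKM in Y1CTL RNA-seq libraries. Sdhb had 130 and 199 RPKM in Y1cKO and 213 and 264 RPKM in Y1CTL libraries, and Sdhc had 36.7 and 39.3 RPKM in Y1cKO and 44.9 and 55.1 RPKM in Y1CTL libraries. Of these, Sdhb and Sdhc had both Y1cKO values under both Y1CTL values, as did 10.7% of all genes in RNA-seq. In complex III, Uqcrc1 had 180 and 296 RPKM in Y1cKO and 220.4 and 363 RPKM in Y1CTL libraries, with overlap. Uqcrc2 had 119.9 and 195 RPKM in Y1cKO and 205 and 265 RPKM in Y1CTL libraries, without overlap. Uqcrfs1, at 103 and 146 RPKM in Y1cKO and 127 and 184 RPKM in Y1CTL libraries, overlapped, as did Uqcr10, at 169 and 218 RPKM in Y1cKO and 194 and 206 RPKM in Y1CTL libraries.

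In complex IV the most abundant transcripts were those of Cox6a1 and Cox8a. Cox6a1 had 542 and 711 RPKM in Y1cKO and 571 and 713 RPKM in Y1CTL RNA-seq libraries, and Cox8a had 626 and 611 RPKM in Y1cKO and 604 and 644 RPKM in Y1CTL libraries. Cox6b1, first in footprints, had 307 and 421 RPKM in Y1cKO and 379 and 451 RPKM in Y1CTL RNA-seq libraries. All 3 had overlapping genotypes. Cox4i1 had 341 and 455 RPKM in Y1cKO and 390 and 465 RPKM in Y1CTL libraries, while Cox4i2 had 4.36 and 3.07 RPKM in Y1cKO and 2.76 and 1.37 RPKM in Y1CTL libraries. Ndufa4 had 164 and 205 RPKM in Y1cKO and 191 and 203 RPKM in Y1CTL libraries, and Ndufa4l2 had 8.77 and 5.87 RPKM in Y1cKO and 5.68 and 4.53 RPKM in Y1CTL libraries. Both hypoxia-linked paralogs thus had both Y1cKO values over both Y1CTL values, as did 36.9% of all genes in RNA-seq, with 5 to 39 reads per library for Cox4i2. In Ribo-seq both genes overlapped. Cox5a had 159 and 209 RPKM in Y1cKO and 213 and 278 RPKM in Y1CTL libraries, and Cox5b had 130 and 214 RPKM in Y1cKO and 130 and 177 RPKM in Y1CTL libraries. Cox7a2 had 131 and 133 RPKM in Y1cKO and 172 and 179.8 RPKM in Y1CTL libraries. For Cox5a and Cox7a2 both Y1cKO values lay under both Y1CTL values, as for 10.7% of all genes in RNA-seq. In complex V, Atp5b had 723 and 967 RPKM in Y1cKO and 954 and 1129 RPKM in Y1CTL RNA-seq libraries, the highest transcript level of all members. Atp5a1 had 374 and 526 RPKM in Y1cKO and 489 and 613 RPKM in Y1CTL libraries. Atp5g2 had 83.2 and 69.4 RPKM in Y1cKO and 79.8 and 84.9 RPKM in Y1CTL libraries, and Atp5g1 had 4.59 and 3.36 RPKM in Y1cKO and 4.82 and 5.13 RPKM in Y1CTL libraries. Per transcript length the c-subunit genes thus differed among themselves by more than the catalytic subunits did, but Atp5g1 has an annotated trailer of 4255 nt. The RNA-seq mean of Atp5g1 was 4.47 RPKM per transcript length and 51.7 RPKM per coding length.

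The first comparison asked whether footprints on the subunit genes differed between Y1cKO and Y1CTL iWAT. Values were higher in Y1cKO iWAT for 77 of 81 members, with a median log2 difference of 0.23, but no member passed the test. Over all 12602 genes 51.5% had a higher value and the median was 0.01. The 4 members with a lower value were Ndufs1 (-0.07), Cox4i2 (-0.20), Atp5j (-0.30) and Atp5g3 (-0.13). The median by complex was 0.23 for complex I, 0.23 for II, 0.29 for III, 0.25 for IV and 0.17 for V. Within complex I, the 30 accessory subunits all had higher values (median 0.24), as did 6 of the 7 core subunits (median 0.18). In limma 0% of all genes were called in either direction at an adjusted p under 0.05, and every adjusted p of a member was 1.00. None of the 81 members had an unadjusted p under 0.05, against 1.62% of all genes in the higher and 1.13% in the lower direction (204 and 143 genes), and voom on the recovered reads also called 0 genes.

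Single libraries set the size of this difference. Y1CTL Ribo-seq replicate 2 was the lowest of the 4 libraries for 74 of 81 members, against 28.6% of all genes, and Y1cKO replicate 1 was the highest for 57, against 18.6%. Between the Y1CTL replicates, replicate 1 was higher for 76 members by a median of 1.33-fold, which is more than the median difference between genotypes. Without Y1CTL replicate 2 the median was 0.01 with 44 of 81 members higher, and without Y1CTL replicate 1 it was 0.42. Without Y1cKO replicate 1 it was 0.12 with 70 members higher, and without Y1cKO replicate 2 it was 0.32. Y1CTL replicate 2 was also the Ribo-seq library with the lowest beige and brown adipocyte marker median, 270.0 RPKM against 780.7 to 1185 RPKM in the other libraries, and the one with the highest adipocyte marker median, 2960 RPKM against 1850 to 2149 RPKM. The 6 adipocyte markers had lower Ribo-seq values in Y1cKO iWAT for 6 of 6 (median log2 difference -0.15), the opposite side from the subunit genes. The beige and brown adipocyte markers had higher values for 7 of 10, Cox7a1 and Cox8b among them (median 0.32), the same side as the subunit genes. The part of these cells in the result was not tested.

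**Figure D2:**
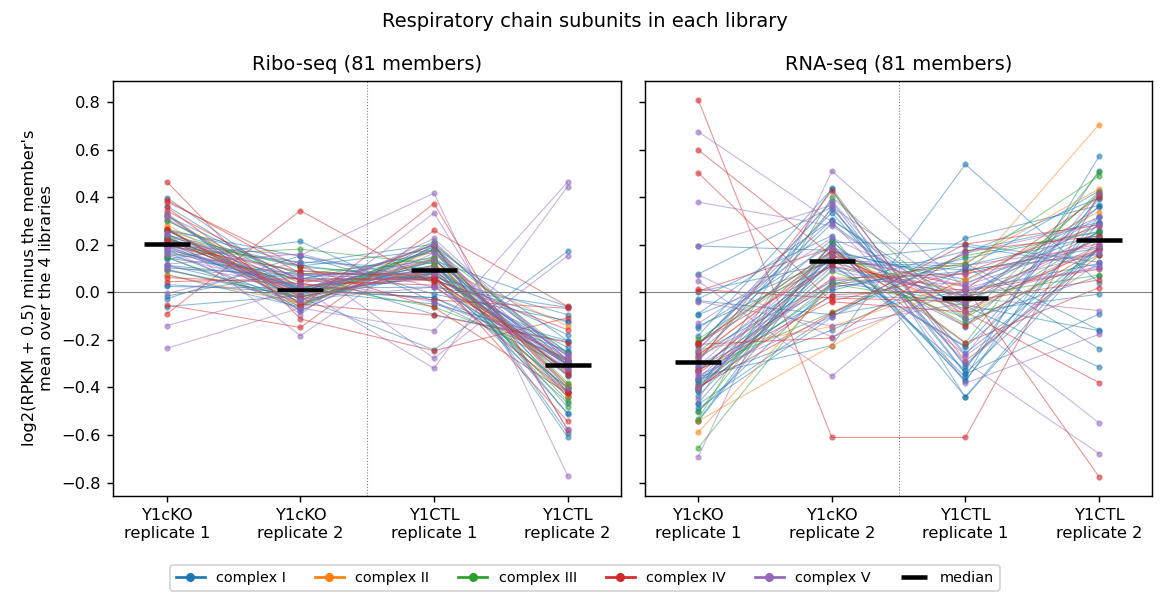
Log2(RPKM + 0.5) of each subunit gene minus its mean over the 4 libraries of the assay, per library, for Ribo-seq (81 genes) and RNA-seq, coloured by complex, with black bars at the median. Y1CTL replicate 2 is lowest in Ribo-seq and Y1cKO replicate 1 is lowest in RNA-seq, and the Y1CTL replicates in Ribo-seq and the Y1cKO replicates in RNA-seq are farther apart in median than the genotypes.

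For 20 members the Y1cKO pair lay wholly above the Y1CTL pair, that is 9 of complex I, 3 of III, 6 of IV and 2 of V. This is 20 of 81, against 15.4% of all genes, and for no member did both lie below (14.1% of all genes). Ndufs6, an accessory subunit near the base of the peripheral arm, had the smallest p of the members. It had 461.5 and 485.8 RPKM in Y1cKO and 407.2 and 336.5 RPKM in Y1CTL Ribo-seq libraries, a log2 difference of 0.35 (standard error 0.17, unadjusted p = 0.0737, limma). Cox5b, a zinc-binding subunit of complex IV, had 842 and 680 RPKM in Y1cKO and 678 and 442 RPKM in Y1CTL libraries, with the lower Y1cKO library just above the higher Y1CTL library. Its log2 difference was 0.47 (standard error 0.25, unadjusted p = 0.105, limma). Cox8a, a small membrane subunit of complex IV, had the highest positive value of the members, with 5422 and 4487 RPKM in Y1cKO and 3986 and 3103 RPKM in Y1CTL libraries. That is a log2 difference of 0.49 with a standard error of 0.27. Cox6a1, the liver-type form of subunit 6a, had 2782 and 2267 RPKM in Y1cKO and 2241 and 1638 RPKM in Y1CTL libraries, again without overlap. Cox5a, a matrix-side subunit, had 1859 and 1596 RPKM in Y1cKO and 1830 and 1193 RPKM in Y1CTL libraries and did overlap.

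In RNA-seq the members stood on the other side. Transcript values were lower in Y1cKO iWAT for 57 and higher for 23 of 80 members, with a median log2 difference of -0.18, and again no member passed the test. Over all 12435 genes the median was 0.17, with 67.2% higher and 32.8% lower. With the libraries scaled to the same median, the all-gene median was 0.01, the median of the members was -0.35 and 11 of 80 members were higher. All 4 genes of complex II (median -0.47) and all 8 of complex III (median -0.30) had lower values, with and without this scaling of the medians, while the medians were -0.19 for complex I, -0.11 for IV and -0.16 for V. In limma 0% of all genes were called in either direction, the smallest adjusted p of a member was 0.401, and voom on reads called 0 genes. An unadjusted p under 0.05 was found for 3 members in the higher direction, against 10.0% of all genes (1246), and for 2 in the lower direction, against 1.79% (222). In 22 of 80 the Y1cKO pair was the lower one, against 10.7% of all genes, and in 7 it was the higher one, against 36.9%.

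Here too replicates differed in the same genes. Y1cKO RNA-seq replicate 1 was the lowest library for 56 of 81 members, against 10.8% of all genes, and Y1CTL replicate 2 was the highest for 49, against 22.9%. These are the libraries with the highest skeletal muscle and the highest lymphocyte marker medians, and they also held the lowest (12.0 RPKM) and the highest (173.0 RPKM) beige and brown adipocyte marker medians of the RNA-seq libraries. Summed over its 10 genes, the muscle list had 264.9 and 46.3 RPKM in Y1cKO and 32.6 and 21.9 RPKM in Y1CTL RNA-seq libraries. The lymphocyte list summed to 3.07 and 2.35 RPKM in Y1cKO and 2.51 and 218.9 RPKM in Y1CTL RNA-seq libraries. The adipocyte markers had higher RNA-seq values in Y1cKO iWAT for 6 of 6 (median 0.53), again the opposite side from the subunit genes, and 5 of them had no overlap, against 36.9% of all genes. The beige and brown adipocyte markers had lower values for 9 of 10, Cox7a1 and Cox8b among them (median -1.58), the same side as the subunit genes. For 6 of these 10 both Y1cKO values lay under both Y1CTL values, against 10.7% of all genes. The part of these cells in the result was not tested. Without Y1cKO replicate 1 the median of the members was 0.04 with 45 of 80 higher, without Y1cKO replicate 2 it was -0.41, without Y1CTL replicate 1 it was -0.30, and without Y1CTL replicate 2 it was -0.05. The median of complex II lay between -0.65 and -0.29 with any 1 library left out, while that of complex III was -0.0021 without Y1cKO replicate 1.

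The 3 members with a higher RNA-seq value and an unadjusted p under 0.05 (limma, 10.0% of all genes) all encode ATP synthase subunits. Of the 17 complex V genes, however, 12 had lower values (median -0.16). Atp5g3, for the c-ring, had 203.0 and 156.0 RPKM in Y1cKO and 103 and 79.1 RPKM in Y1CTL RNA-seq libraries, a log2 difference of 0.97 (standard error 0.24, unadjusted p = 0.0076, limma). Atp5j, for a subunit of the peripheral stalk, had 114 and 107 RPKM in Y1cKO and 81.2 and 59.8 RPKM in Y1CTL libraries (0.66, standard error 0.22, unadjusted p = 0.0248, limma). Atp5e, for the epsilon subunit of the central stalk, had 100.4 and 113 RPKM in Y1cKO and 67.2 and 77.5 RPKM in Y1CTL libraries (0.56, standard error 0.19, unadjusted p = 0.0275, limma). In none of these did the genotypes overlap, and 36.9% of all genes had both Y1cKO values over both Y1CTL values in RNA-seq. Sdhd had the smallest unadjusted p of the members with a lower value. This gene, which encodes a membrane anchor of complex II, had 80.4 and 100.2 RPKM in Y1cKO and 122 and 191 RPKM in Y1CTL RNA-seq libraries, a log2 difference of -0.77 (standard error 0.28, unadjusted p = 0.0343, limma). Ndufb3, a membrane arm subunit of complex I, had 97.7 and 107 RPKM in Y1cKO and 182 and 129 RPKM in Y1CTL libraries (-0.58, unadjusted p = 0.0518, limma). Adjusted over all genes, the p-values of these 5 genes were between 0.401 and 0.426, and none of these differences can be separated from the spread between libraries.

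**Figure D3:**
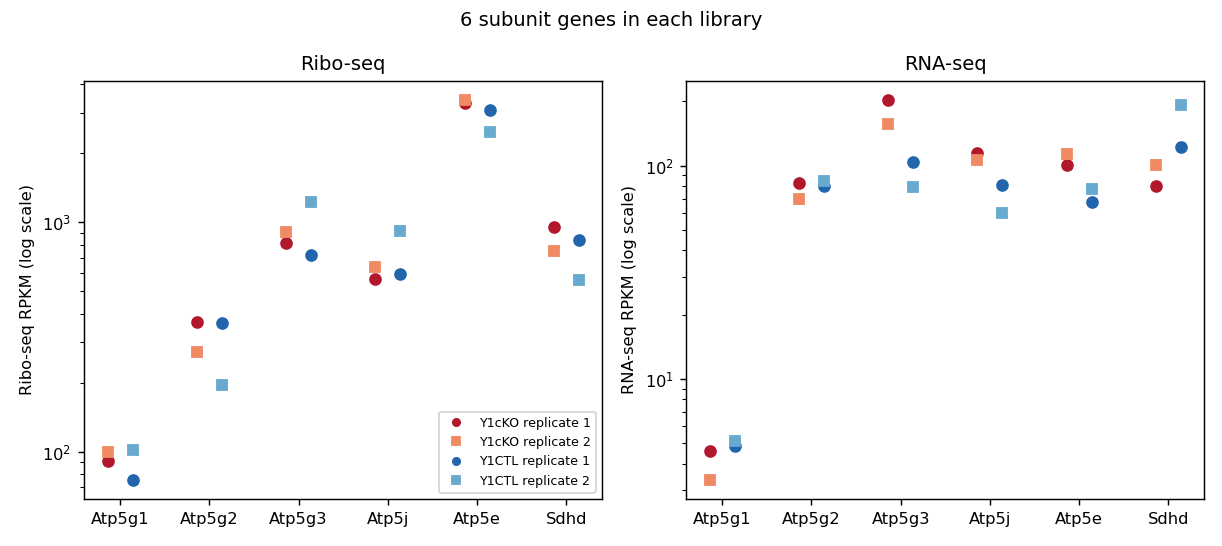
RPKM (log axis) of Atp5g1, Atp5g2, Atp5g3, Atp5j, Atp5e and Sdhd in each library of both assays, Y1cKO left of Y1CTL. For Atp5g3 and Atp5j the Y1cKO points lie above the Y1CTL points in RNA-seq, while Y1CTL replicate 2 is the highest point in Ribo-seq.

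Footprints on these 5 genes lay on the other side for some and on the same side for others. In Ribo-seq, Atp5j had 567 and 637 RPKM in Y1cKO and 596 and 920 RPKM in Y1CTL libraries, overlapping, with Y1CTL replicate 2 highest. Atp5g3, with the values given above, also overlapped and was highest in Y1CTL replicate 2. Ndufb3 had 775 and 771 RPKM in Y1cKO and 774 and 729 RPKM in Y1CTL Ribo-seq libraries, overlapping. Sdhd had 952 and 751 RPKM in Y1cKO and 842 and 562 RPKM in Y1CTL Ribo-seq libraries, overlapping. Atp5e had 3321 and 3420 RPKM in Y1cKO and 3102 and 2482 RPKM in Y1CTL Ribo-seq libraries, without overlap and in the same direction as its transcript. Both Y1cKO values lay over both Y1CTL values for 15.4% of all genes in Ribo-seq. Over the 80 members with both values, 56 had a higher footprint value and a lower transcript value in Y1cKO iWAT, 20 had both higher, 3 had a lower footprint and a higher transcript value, and 1 had both lower. Over all 11792 genes these shares were 17.6%, 33.8%, 33.8% and 14.7%. The signs rest on single libraries, since 44 of 81 members were higher in Ribo-seq without Y1CTL replicate 2 and 45 of 80 were higher in RNA-seq without Y1cKO replicate 1. The 3 were Atp5g3, Atp5j and Cox4i2, and the 1 was Ndufs1.

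**Figure D4:**
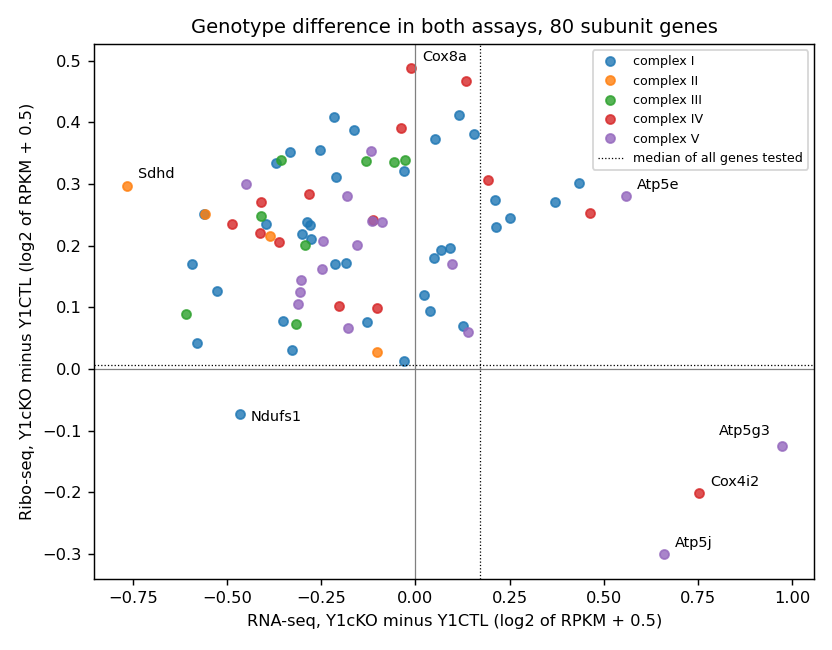
Log2 difference Y1cKO over Y1CTL in RNA-seq (x) and Ribo-seq (y) for 80 subunit genes, coloured by complex, with dotted lines at the medians of all genes tested. Most points (56) lie at lower RNA-seq and higher Ribo-seq values, with Atp5g3 and Atp5j on the opposite side.

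Translational efficiency (TE) sets the footprints of a gene against its transcripts, and its difference between genotypes was tested in 1 model of the 8 libraries as the assay-by-genotype term. TE values were higher in Y1cKO iWAT for 70 of 80 members, with a median log2 difference of 0.39, and no member passed the test. Over all 11792 genes the median was -0.17, with 34.7% higher and 65.3% lower. The medians were 0.36 for complex I, 0.71 for II, 0.48 for III, 0.39 for IV and 0.36 for V. In limma 0% of all genes were called in either direction, as with voom (0 genes), and the smallest adjusted p of a member was 0.563. An unadjusted p under 0.05 was found for 6 members in the higher direction, against 1.53% of all genes (181), and for 2 in the lower, against 7.12% (840). TE draws on both assays and on the libraries that stood apart in each. Each TE fit without a replicate left out the Ribo-seq and the RNA-seq library with that number. The median was 0.06 without Y1CTL replicate 2 (44 of 80 higher), 0.09 without Y1cKO replicate 1 (51 higher), 0.75 without Y1CTL replicate 1 and 0.71 without Y1cKO replicate 2. The adipocyte markers had lower TE values for 6 of 6 (median -0.68). The beige and brown adipocyte markers had higher TE values for 9 of 10, Cox7a1 and Cox8b among them (median 1.74), the same side as the subunit genes. The part of these cells was not tested.

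Of the members with the smallest p for TE, Sdhd, Ndufa12 and Atp5l had higher values in Y1cKO iWAT. Sdhd had a log2 difference in TE of 1.06 (standard error 0.42, unadjusted p = 0.0355, limma). Ndufa12, a peripheral arm subunit of complex I, had 554 and 469 RPKM in Y1cKO and 451 and 406 RPKM in Y1CTL Ribo-seq libraries. Its RNA-seq values were 192 and 250 RPKM in Y1cKO and 298 and 351 RPKM in Y1CTL libraries, so that neither assay overlapped and the TE difference was 0.81 (standard error 0.29, unadjusted p = 0.0236, limma). Over all genes, 15.4% had both Y1cKO values above in Ribo-seq and 10.7% had both below in RNA-seq. Atp5l, subunit g of the membrane part of ATP synthase, had 1197 and 1056 RPKM in Y1cKO and 986 and 846 RPKM in Y1CTL Ribo-seq libraries. In RNA-seq Atp5l had 217 and 257 RPKM in Y1cKO and 310 and 337 RPKM in Y1CTL libraries, and its TE difference was 0.75 (standard error 0.27, unadjusted p = 0.0265, limma). Lower values were found for Atp5g3 (-1.10, standard error 0.41, unadjusted p = 0.0286, limma) and Atp5j (-0.96, standard error 0.35, unadjusted p = 0.0272, limma). Without Y1CTL replicate 1, which leaves 1 Y1CTL library per assay, 508 genes passed the test in the higher direction (4.29% of 11828) and 455 in the lower (3.85%), and 3 of them were members, namely Atp5g3 (-1.67, adjusted p = 0.0298), Atp5j (-1.49, adjusted p = 0.0234) and Sdhd (1.68, adjusted p = 0.0318, limma). The Y1CTL libraries then left were the RNA-seq library high in lymphocyte transcripts and the Ribo-seq library low in beige and brown adipocyte markers.

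The last comparison set footprint against transcript level within the tissue, averaged over both genotypes. Ribo-seq RPKM was above RNA-seq RPKM and passed the test for all 80 members, against 63.2% of all genes called in this direction and 14.4% in the other. No member had a lower value, against 23.9% of all genes. The median log2 ratio was 2.67 for the members and 0.94 for all 11792 genes, and by complex it was 2.65 for I, 2.58 for II, 2.52 for III, 2.83 for IV and 2.82 for V. The assays were scaled separately and on different lengths, so the ratio has no absolute zero and is read against the other genes. With both assays per coding length, an alternative chosen after the data were seen, the medians were 1.82 for the members and 0.03 for all genes, and 78 of 80 members passed the test in the higher direction. On either length scale 79 of 80 members lay above the median of all genes, and the median member was at percentile 89.7 per transcript length and 92.2 per coding length. Other lists also had high medians, at 5.43 for lymphocyte, 3.26 for macrophage and 2.53 for beige and brown adipocyte markers per transcript length. Assembly factors had 2.10, while endothelial markers had -0.32 and skeletal muscle markers 0.21. Lymphocyte marker medians were 56.1 to 76.2 RPKM in Ribo-seq and 0.08 to 15.7 RPKM in RNA-seq libraries. The part of cell content in the ratios was not tested.

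The order of the members within this range depended on the length used. The highest ratios per transcript length were those of Ndufb2 (6.58), Atp5md (6.49), Ndufb1-ps (5.16), Atp5e (5.12) and Atp5j2 (5.01). Ndufb2, a small subunit of the complex I membrane arm, had 554 and 452 RPKM in Y1cKO and 488 and 373 RPKM in Y1CTL Ribo-seq libraries. In RNA-seq Ndufb2 had 4.05 and 5.47 RPKM in Y1cKO and 4.16 and 3.83 RPKM in Y1CTL libraries, spread over a transcript with an annotated trailer of 4015 nt. Atp5md, a small membrane subunit of ATP synthase, had 2037 and 1979 RPKM in Y1cKO and 2371 and 1041 RPKM in Y1CTL Ribo-seq libraries. In RNA-seq Atp5md had 15.5 and 22.2 RPKM in Y1cKO and 18.2 and 22.3 RPKM in Y1CTL libraries over a transcript with a trailer of 2497 nt. The 5 members with a trailer over 2000 nt (Ndufb2, Atp5g1, Ndufab1, Sdhc and Atp5md) had a median ratio of 4.61 per transcript length, against 2.60 for the others. Per coding length they had 1.73, against 1.83 for the others, with Ndufb2 at 2.93 and Atp5md at 2.55.

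All 5 genes with the highest ratios per transcript length stayed high on the other scale. They lay between percentile 96.9 (Atp5md) and 99.2 (Atp5e) of all genes per coding length. Atp5e was at 3.69 and Atp5j2, subunit f of the membrane part of ATP synthase, at 3.16 per coding length. Atp5j2 had 2588 and 2426 RPKM in Y1cKO and 2447 and 1844 RPKM in Y1CTL Ribo-seq libraries. Its RNA-seq values were 52.1 and 91.7 RPKM in Y1cKO and 70.4 and 77.0 RPKM in Y1CTL libraries. Ndufb1-ps, which the symbol names a pseudogene although it had footprints, had 761 and 693 RPKM in Y1cKO and 745 and 621 RPKM in Y1CTL Ribo-seq libraries. In RNA-seq it had 17.9 and 21.0 RPKM in Y1cKO and 20.8 and 17.1 RPKM in Y1CTL libraries, and its ratio per coding length was 2.86. Other short coding sequences with short trailers lay lower per coding length, among them Atp5mpl at 0.75 and Uqcr11 at 1.13, which were named after their values were seen. Across the 80 members Spearman's rho between coding length and the ratio was -0.47 per transcript length and -0.12 per coding length. The rho between trailer length and the ratio was 0.19 and, per coding length, -0.22. These are descriptions of genes that share libraries and an annotation.

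**Figure D5:**
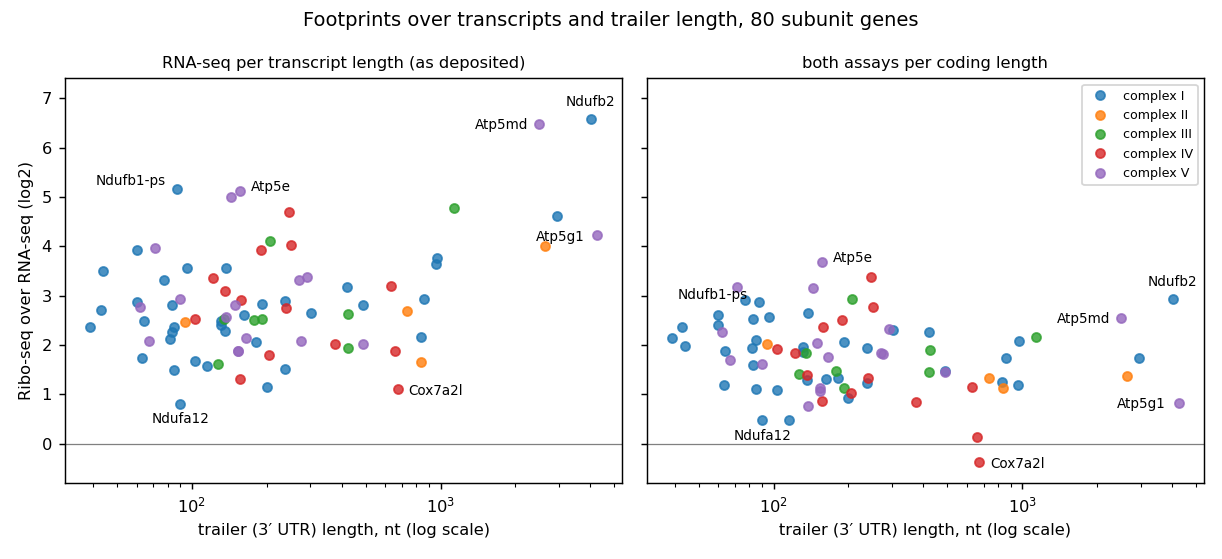
Log2 ratio of Ribo-seq over RNA-seq against the annotated trailer length (nt) for 80 subunit genes, with RNA-seq per transcript length and per coding length in separate panels. The 5 genes with trailers over 2000 nt have a median of 4.61 per transcript length and 1.73 per coding length.

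Among the lowest were Ndufa12 (0.81), Cox7a2l (1.10), Cox4i2 (1.30) and Ndufb9 (1.49), all called higher per transcript length. Ndufb9, a membrane arm subunit of complex I, had 870 and 830 RPKM in Y1cKO and 832 and 641 RPKM in Y1CTL Ribo-seq libraries. In RNA-seq it had 207 and 307 RPKM in Y1cKO and 320 and 302 RPKM in Y1CTL libraries. Cox7a2l had 47.7 and 58.4 RPKM in Y1cKO and 63.6 and 72.8 RPKM in Y1CTL RNA-seq libraries, and its ratio was -0.38 per coding length, which reverses its direction on a scale that has no absolute zero. The other 3 named here stayed above 0 per coding length, at 0.47 for Ndufa12, 0.87 for Cox4i2 and 1.10 for Ndufb9.

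Of the gene lists around the subunit genes, some gave Ribo-seq differences of the same sign and others gave Ribo-seq medians near 0. The 47 assembly factors found, which build the complexes without staying in them, had a median Ribo-seq level of 37.2 and 41.1 RPKM in Y1cKO and 40.5 and 37.4 RPKM in Y1CTL libraries. Of 45 tested in Ribo-seq, 26 had higher values in Y1cKO iWAT (median 0.06), and of 46 in RNA-seq, 23 were higher (median 0.005). An unadjusted p under 0.05 was found for 0 of them in Ribo-seq and for 2 higher and 2 lower in RNA-seq. The 10 mitochondrially encoded subunits found, which mitochondrial ribosomes translate, had higher values for all 10 genes in Ribo-seq (median 0.53) and lower values for 8 of 10 in RNA-seq (median -0.28), with TE values higher for 9 of 10 (median 0.80). These are the signs of most nuclear subunit genes, and they come from the same libraries. The summed RPKM was lowest in Y1CTL replicate 2 in Ribo-seq (63482 against 99285 to 130837). In RNA-seq it was lowest in Y1cKO replicate 1 (123365 against 160644 to 181298). The Ribo-seq medians of the Y1CTL replicates were close, at 3597 and 3616 RPKM. For the mitochondrially encoded genes the log2 ratio of Ribo-seq over RNA-seq had a median of -1.25, with 0 called higher and 6 lower, against the median of 2.67 of the nuclear genes. The isoforms of muscle and brown fat that the rule left out were higher in Ribo-seq for 3 of 3 (median 0.73) and lower in RNA-seq for 2 of 3 (median -0.36). Of these, Cox6a2, the muscle form of subunit 6a, had 2.89 and 1.90 RPKM in Y1cKO and 1.16 and 0.47 RPKM in Y1CTL Ribo-seq libraries, without overlap (log2 difference 1.17, unadjusted p = 0.0141, limma). Such values are low beside the filter of 0.5 RPKM. Both Y1cKO values lay over both Y1CTL values for 15.4% of all genes in Ribo-seq. In RNA-seq Cox6a2 had 2.89 and 0 RPKM in Y1cKO and 0 and 0.30 RPKM in Y1CTL libraries, with the high value in the library high in muscle transcripts. Cox7a1 had 1992 and 1413 RPKM in Y1cKO and 1561 and 652 RPKM in Y1CTL Ribo-seq libraries, overlapping, and Cox8b had 2412 and 1878 RPKM in Y1cKO and 1900 and 1618 RPKM in Y1CTL libraries, also overlapping. Of 15 electron carriers and entry enzymes, 10 of 14 tested were higher in Ribo-seq (median 0.06) and 5 of 15 in RNA-seq (median -0.25). Cycs, the gene for cytochrome c, was not tested in Ribo-seq. It was at 0 RPKM in every Ribo-seq library, against 17.5 to 61.7 RPKM in RNA-seq libraries, and the reason was not tested. The 12 transcriptional regulators of respiratory genes were higher in Ribo-seq for 4 (median -0.05) and in RNA-seq for 5 of 11 tested (median -0.03). No gene of these lists passed the test between genotypes in either assay.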

How the data were processed

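The authors trimmed and masked reads, mapped them to mm8 with HISAT2 2.2.1 and deposited RPKM values, 1 table for each library. The submitters' processing notes also name DESeq2, without a role. Neither counter nor annotation release is given in the sources used here. Deposited RPKM is per coding length for Ribo-seq and per transcript length for RNA-seq. Each value was a whole multiple of 1 read (within 0.01), so reads were recovered. Log2(RPKM + 0.5) was fitted with limma 3.58.1 (R 4.3.3, intensity trend) over all genes that averaged 0.5 RPKM or more. P-values were adjusted by Benjamini-Hochberg at 0.05. An exact test of 2 libraries against 2 cannot go below 0.333. The scripts were tested on simulated data. Symbols follow the tables, and where headers and labels gave different replicate numbers (the RNA-seq tables of Y1cKO), the labels were followed.

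Members and lists were chosen with earlier results of these data known. The text names the highest and lowest member of each complex in Ribo-seq, the 6 members with the smallest p per genotype contrast (2 where none was under 0.05), the 5 highest and 5 lowest ratios, members under the filter, and catalytic or isoform genes. The values of 1 member are not reported here, although it is in the counts and medians. Alternatives covered the pseudocount, filter, scaling, trend, voom, a replicate block, a left-out library, both assays per coding length and motifs on 1 strand. In fits over both assays, a left-out replicate took out the Ribo-seq and the RNA-seq library with that number. Python 3.11.15, numpy 2.4.6, pandas 2.3.3 and matplotlib 3.10.9 were used.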

Additional observations from a re-analysis of the deposited data

How the results depend on the processing

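No genotype contrast called a member under any alternative except TE without Y1CTL replicate 1. With both RNA-seq scalings (same median, same upper quartile), 11 of 80 members had a higher RNA-seq value in Y1cKO iWAT. For Ribo-seq over RNA-seq, 4831 genes were called higher and 709 lower with a filter at 5 RPKM, which tests fewer genes, and 4167 and 4160 with both assays per coding length, against 7449 and 1703 as reported. Per coding length the median ratios were 1.82 for all members and 1.94, 1.36, 1.65, 1.37 and 1.81 for complexes I to V, and Cox7a2l was at -0.38. On the gene's strand alone the ERR motif was in 0 member promoters, against 0.217% of all protein-coding promoters. The ETS motif was then in 5 member promoters (7.58%), close to the 7.11% of all. The NRF1 motif was in 12 (18.2%), against 4.57% of all.

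With 1 library left out, in which a lone library is assumed to vary like the others, Ribo-seq genes called were 0 to 43 higher and 0 to 13 lower. Members with a higher Ribo-seq value numbered 44 to 77, with a median of 0.012 to 0.42 (0.0046 to 0.41 for complex I and -0.040 to 0.51 for II). In RNA-seq 0 to 265 genes were called higher and 0 to 400 lower, 13 to 45 members were higher, and the median of complex V was -0.37 to 0.10. For TE 0 to 508 genes were called higher and 0 to 455 lower, with 0 to 3 members called and 44 to 75 higher. Median TE differences were 0.060 to 0.75 for all members, 0.060 to 0.74 for complex I, 0.28 to 1.13 for II, 0.086 to 0.93 for III, 0.059 to 0.77 for IV and -0.12 to 0.68 for V. The cause of these shifts was not tested.

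Same-numbered libraries did not deviate together (r of -0.24 and -0.14 across genes between assays in Y1cKO and Y1CTL, 0.05 and -0.02 between genotypes). The RNA-seq headers number the Y1cKO replicates the other way round, which turns the first r to 0.24. As headers and labels differ and neither says what a number shares, the numbers were not taken to pair libraries. The replicate block called 0 genes between genotypes, and 7202 higher and 1552 lower for Ribo-seq over RNA-seq. With crossed numbers TE called 0 genes, and the assays 7309 higher and 1626 lower (crossed in Y1cKO) or 7472 and 1695 (crossed in both).

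Depth limits the low members: Cox6b2 had at most 0.84 RPKM in RNA-seq.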
